A study of Rattus norvegicus with 48 samples.

Results

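Visceral adipose tissue (VAT) was compared with subcutaneous adipose tissue (SAT) in exercised male adolescent rats, with both depots taken from the same animals. Libraries were chosen by their labels: all VAT and SAT libraries of exercised rats, which are 24 of the 48 libraries of the series and come from 12 of its 24 rats. The early exercise group held 6 rats assigned to zeitgeber time 13 (hours after lights on, the early active phase of a nocturnal animal), and the late exercise group held 6 rats assigned to zeitgeber time 23, the late active phase. Fat was collected on postnatal day 61, when 24 h had passed since the last session. The labels name neither the strain, the kind of exercise nor the exact site of either depot. The other 24 libraries come from sedentary rats of the same 2 phases (early control and late control, 6 rats each) and enter below in 1 comparison.

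Visceral fat lies within the body cavity around the organs, and the veins of some of its pads drain towards the liver, while subcutaneous fat lies under the skin. Both store triglyceride and release fatty acids, but they arise from partly different precursor cells, and visceral fat carries a surface layer of mesothelium that subcutaneous fat lacks. A piece of either depot holds adipocytes together with vessels, fibroblasts and immune cells, and subcutaneous fat can include strands of neighbouring muscle, gland or lymph node. In bulk RNA of this kind a difference in the number of cells of a type and a difference in the RNA per cell cannot be told apart.

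Estimated counts per gene were deposited under Ensembl IDs, and none of the 23481 IDs could be paired with a symbol from the sources at hand (0 matches). Genes are therefore described by set, by level and by direction, and 4 IDs are followed: the 2 largest rises and the 2 largest falls in VAT among called genes with at least 5 CPM (a count scaled to depth) in a depot and the same sign in all 9 pairs used. For the same reason, neither depot could be checked against its marker genes here.

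Of the 12 rats, 3 have a library that stands apart from the rest of its depot, more than 5 median absolute deviations below the depot's median in rank correlation with the other libraries. These are the VAT library of early exercise rat 3 (median Spearman correlation 0.95) and the SAT libraries of late exercise rats 4 (0.828) and 6 (0.846). Both depots of these rats were left out of the main comparison, which thus holds 9 pairs, 5 from early and 4 from late exercise, and the fit of all 12 pairs is given beside it. Among the 9 pairs, VAT libraries held between 15177440 and 17569730 counts and SAT libraries between 13163675 and 16983552. VAT libraries detected 15959 to 16240 genes, a narrow range, whereas SAT libraries detected 14653 to 16582, with the lowest number in early exercise rat 1. Intervals from counts below cover counting error only.

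The depots differed in a large share of the genes measured, mostly by small amounts, with the larger differences leaning towards genes that were low in VAT. Of 13508 genes tested, 3235 were higher in VAT and 3074 were lower, with edgeR's quasi-likelihood test paired by rat at an adjusted p under 0.05. These calls are 46.7% of the genes tested, 23.9% higher and 22.8% lower. The median log2 fold change was 0.0017 over all genes tested, 0.43 over genes called higher and -0.53 over genes called lower. Of the calls, 62.5% were under 1.5-fold and 86.1% under 2-fold.

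At larger sizes the directions parted. Over 2-fold, 291 genes were higher in VAT and 583 were lower. Over 4-fold, 42 genes were higher and 111 were lower, and over 8-fold 13 were higher and 40 lower. With no filter on low counts beyond 1 count in all, 112 genes were higher and 342 lower over 4-fold.

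The genes over 4-fold in either direction had similar levels in the depot where they were high. The gap between depots in these medians follows from choosing genes over 4-fold. The 42 genes over 4-fold higher had a median of 10.1 CPM (counts scaled by the TMM-adjusted library total) in VAT and 1.17 CPM in SAT. The 111 genes over 4-fold lower had a median of 0.933 CPM in VAT and 8.88 CPM in SAT. Calls were more frequent at higher levels: 17.5% of the 383 genes under 1 CPM were called, 34% of the 4085 genes between 1 and 10 CPM, 51.1% of the 7466 genes between 10 and 100 CPM, and 65.8% of the 1574 genes over 100 CPM. Above 100 CPM 693 genes were higher in VAT and 343 lower, and between 10 and 100 CPM 2077 were higher and 1741 lower. Between 1 and 10 CPM 446 were higher and 942 lower, and under 1 CPM 19 and 48. The sizes did not follow the same order. The median absolute log2 change of called genes was 1.26 under 1 CPM and 0.76 between 1 and 10 CPM. It was 0.39 between 10 and 100 CPM and 0.48 above 100 CPM.

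**Figure D1:**
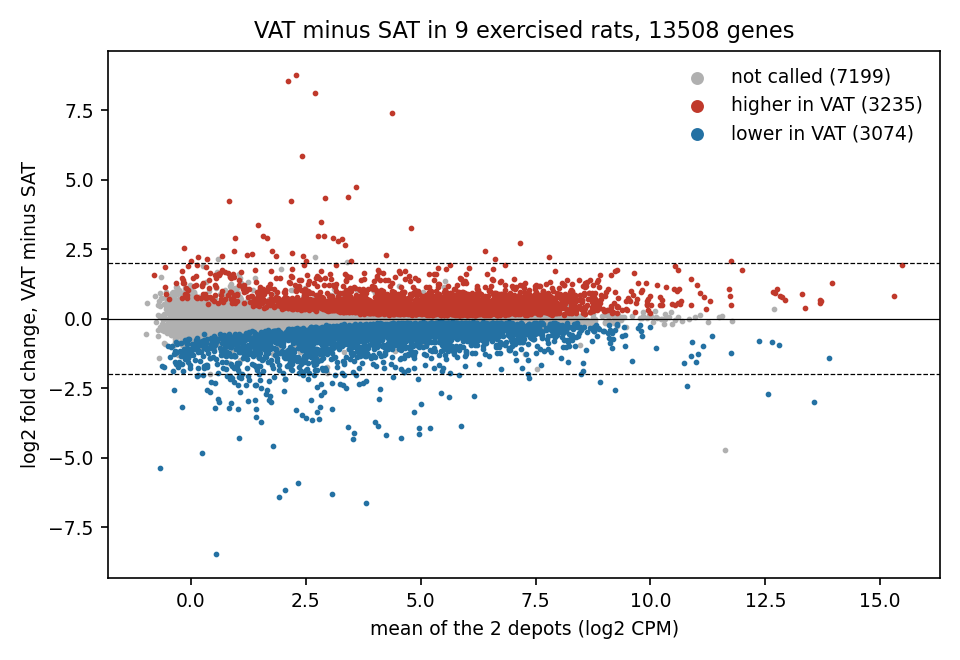
Log2 fold change of VAT minus SAT in 9 exercised rats (vertical axis) against the mean level over both depots in log2 CPM (horizontal axis), 1 point per gene, coloured by call at an adjusted p under 0.05; dashed lines mark 4-fold. Points below the lower line (111 called genes) outnumber points above the upper line (42 called genes), and most calls lie near 0.

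In terms of RNA, the genes called higher in VAT made up a median of 58.9% of counts in VAT libraries (52.2% to 62.3%) and 40.4% in SAT libraries (27.2% to 46.3%). The genes called lower made up a median of 13.8% in VAT (12.2% to 17.8%) and 27.6% in SAT (21.8% to 42.9%). Neither pair of ranges overlaps, although these genes were chosen by the same contrast. The 10 most abundant genes of a library took 23% of counts in VAT (median; 18.1% to 25.2%) and 16.9% in SAT (13.8% to 21.7%). The 100 most abundant genes of each depot had 84 in common. Of the 116 genes in either list, 59 were called higher and 26 lower in VAT, and over 2-fold 19 were higher and 12 lower. Of all 13508 genes tested, 23.9% were called higher and 22.8% lower, and over 2-fold 291 were higher and 583 lower. The 1574 genes over 100 CPM leaned the same way as the abundant lists, with 693 called higher and 343 lower.

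The 2 largest rises were close to absent from SAT. ENSRNOG00000013074 stood at 5.52, 10.8 and 12.5 CPM in VAT (lowest, median and highest of 9 libraries) and at 0, 0 and 0.127 CPM in SAT. It had 1319 counts over the 9 VAT libraries and 2 counts over the 9 SAT libraries, both of them in late exercise rat 2, a ratio of 616 with a 95% exact counting interval of 170 to 5096 (adjusted p = 7.50e-08, edgeR). VAT averaged 9.73 ± 2.74 CPM (SD, n = 9), and every VAT library lay above every SAT library. The fitted log2 fold change of 8.78 moved to 10.21 without late exercise rat 2, which leaves no SAT count and so gives no bound, and to 7.80 with limma voom.

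ENSRNOG00000023686 stood at 1.14, 10.7 and 15.3 CPM in VAT and at 0, 0 and 0.0743 CPM in SAT. Its VAT libraries varied widely between rats, with a mean of 8.63 ± 5.35 CPM (SD, n = 9). The 9 VAT libraries held 1170 of its counts and the SAT libraries 2, a ratio of 547 with an interval of 151 to 4521 (adjusted p = 7.50e-08, edgeR). The depots again did not overlap. Its fitted log2 fold change was 8.56 with edgeR and 7.08 with limma voom, and 7.94 (edgeR) without the 4 rats of the fit (early exercise rats 2 and 6, late exercise rats 1 and 2) whose SAT library held over 1000 CPM of an abundant gene described at the end. Without those 4 rats, ENSRNOG00000013074 was at 10.28, again with no SAT count left.

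The 2 largest falls were present in every SAT library of the fit, at levels that varied from rat to rat. ENSRNOG00000014378 stood at 0.0673, 0.205 and 0.502 CPM in VAT and at 7.04, 15.3 and 60.4 CPM in SAT. The groups did not overlap, and the log2 fold change was -6.61 ± 0.358 (SE, adjusted p = 3.06e-07, edgeR). ENSRNOG00000030981 stood at 0, 0 and 0.251 CPM in VAT, where 5 of 9 libraries had no count, and at 2.53, 7.42 and 18.6 CPM in SAT. Its log2 fold change was -6.42 ± 0.486 (SE, adjusted p = 1.95e-06, edgeR), from 10 counts over VAT and 1044 over SAT. Without early exercise rat 4 it was -7.10, and without the same 4 rats -5.36.

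The 4 IDs held their direction in the 3 rats outside the fit. Their values are given on a scaling of all 48 libraries together, on which values of the 9 rats lie slightly higher than those above. In the 3 rats ENSRNOG00000013074 stood between 12.1 and 15.8 CPM in VAT and between 0 and 0.059 CPM in SAT. ENSRNOG00000014378 stood between 0.19 and 0.397 CPM in VAT and between 6.24 and 11.5 CPM in SAT. ENSRNOG00000030981 reached 91.8 and 58.1 CPM in the SAT libraries of late exercise rats 4 and 6, against 19.6 CPM in the highest SAT library of the fit on this scaling, and 1.48 CPM in that of early exercise rat 3. Its VAT values in the 3 rats were 0.316, 0.397 and 0.441 CPM.

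**Figure D2:**
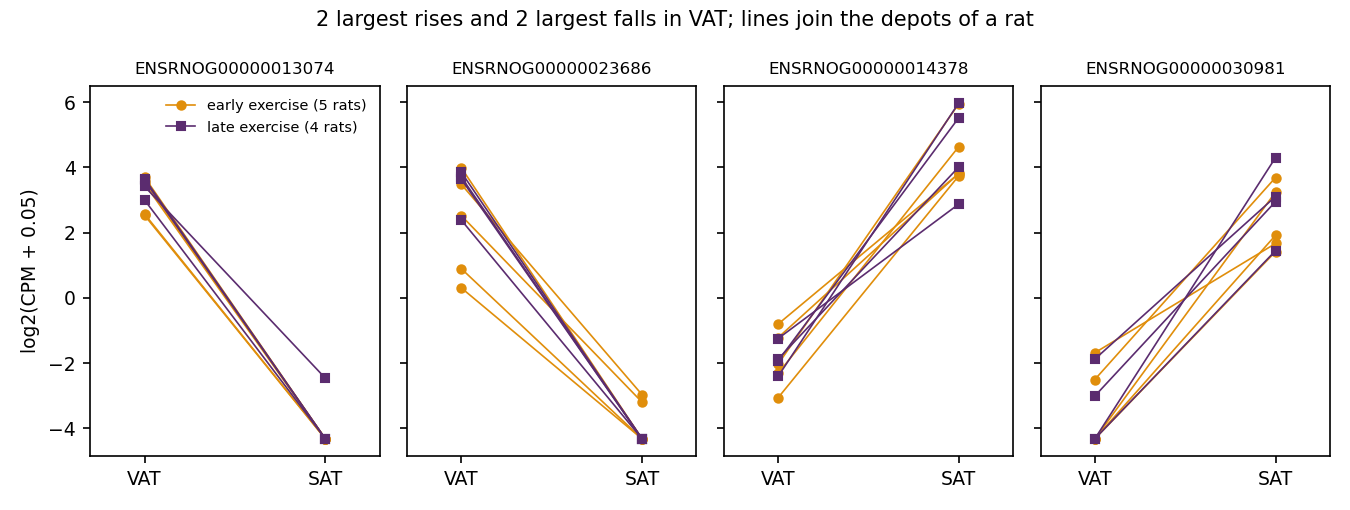
Level of the 4 followed genes in VAT (left) and SAT (right) of each of 9 exercised rats, as log2(CPM + 0.05) on the scaling of all 48 libraries, with a line joining the depots of a rat; circles are early and squares late exercise. In all 4 panels the VAT and SAT values do not overlap, and the SAT values of the 2 genes on the right spread over several log2 units.

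Some genes came close to a presence in 1 depot. In 3 genes no SAT library had more than 3 counts while VAT averaged at least 1 CPM, and 4 genes showed the reverse. Of the 13508 genes tested, 12938 averaged 1 CPM or more in VAT and 13115 in SAT, with 12775 in both. Most genes tested were thus present in both depots at this level. The counts in this paragraph leave out genes removed by the filter on low counts. Presence in 1 depot was not examined for those genes.

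The direction of a difference was often the same in all 9 rats. All 9 pairs had the same sign as the fit in 27.4% of all genes tested. Among called genes this held for 2108 of the 3235 higher and for 1554 of the 3074 lower in VAT, and over 4-fold for 32 of 42 and 88 of 111. Complete separation of the 9 VAT from the 9 SAT libraries was found for 7.49% of all genes tested (4.11% higher and 3.38% lower in VAT), and for 23 of the 42 and 71 of the 111 genes over 4-fold. These counts describe genes chosen by the same libraries.

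SAT varied more between rats than VAT. The median standard deviation of log2 CPM over the 9 rats was 0.207 in VAT and 0.289 in SAT, and within the phase groups it was 0.168 in VAT and 0.261 in SAT. Within phases the standard deviation was larger in SAT for 82.6% of genes. In a principal component analysis of the 18 libraries, the first component (34.1% of the variance) parted the depots, with VAT between 16 and 43.8 and SAT between -76.4 and -12.1. The SAT library of early exercise rat 1 lay farthest out. The second component (13.3%) parted the phases in both depots. Early libraries lay between -23.5 and -14.1 and late libraries between 15.8 and 46.5.

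The genes over 4-fold lower in VAT were carried by SAT libraries to unequal degrees. Summed over the 111 genes, VAT libraries held 3577 to 8513 CPM, and SAT libraries 17792 to 90114 CPM with a median of 30965. The 2 highest SAT sums were those of early exercise rat 1 (90114 CPM) and late exercise rat 5 (72279 CPM). Early exercise rat 1 had the highest SAT value for 35 of the 111 genes, or 31.5%, against 20.7% of all genes tested. For early exercise rat 2 this was 22 genes, or 19.8%, against 10.1% of all genes tested. That rat also had the lowest SAT value for 26 of the genes, or 23.4%, against 11%. Late exercise rat 5 was highest for 13 genes, or 11.7%, against 12.1%. The SAT library of early exercise rat 1 was also the one with the fewest detected genes. Whether this is linked to its high values was not tested. Without early exercise rat 1, 110 genes were over 4-fold lower and 35 over 4-fold higher. Of these, 102 of the lower and 35 of the higher genes were also over 4-fold in the main fit, so the lists of genes differed in part.

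In 34 of the 111 genes the SAT libraries spanned over 10-fold, and in 13 they lay within 3-fold. Of all genes at 1 CPM or more in SAT, 4.45% spanned over 10-fold and 79.4% lay within 3-fold. Of the 42 genes over 4-fold higher, the VAT libraries spanned over 10-fold in 10, against 1.48% of all genes at that level in VAT. They lay within 3-fold in 14 of the 42 (33.3%), against 91.3% of all genes at that level. Summed over these 42 genes, VAT held 2435 to 12157 CPM with a median of 6243, and SAT 499 to 3320 CPM with a median of 1676. Here the lowest VAT library (early exercise rat 4, 2435 CPM) lay below the highest SAT library, though above the SAT library of its own rat (499 CPM). Late exercise rat 5 had the highest VAT value for 14 of the 42 genes, or 33.3%, against 12.6% of all genes tested. Early exercise rat 4 had the lowest VAT value for 14 of them, or 33.3%, against 13.6%. Single rats thus stood out in this list as well.

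Each rat was then set against the direction found in the fit. Of the called genes, between 88.3% (early exercise rat 2) and 97.8% (early exercise rat 6) had the called direction in each of the 9 rats, which is not independent of the fit. In the 3 exercised rats outside the fit the share was lower. It was 54.6% in early exercise rat 3, 74.5% in late exercise rat 4 and 73.8% in late exercise rat 6. For late exercise rats 4 and 6 the genes called higher in VAT kept their sign more often (81.5% in either rat) than the genes called lower (67.2% and 65.7%). In early exercise rat 3, whose VAT library is the atypical one, 50.2% of the genes called higher and 59.2% of the genes called lower had the called sign. Over 2-fold the shares for that rat were 83.8% of the genes higher and 74.4% of the genes lower in VAT. In late exercise rats 4 and 6 they were 93.1% and 91.4% of the genes higher over 2-fold. For the genes lower over 2-fold they were 66.4% and 66.9%, close to the shares of all genes called lower in these rats.

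**Figure D3:**
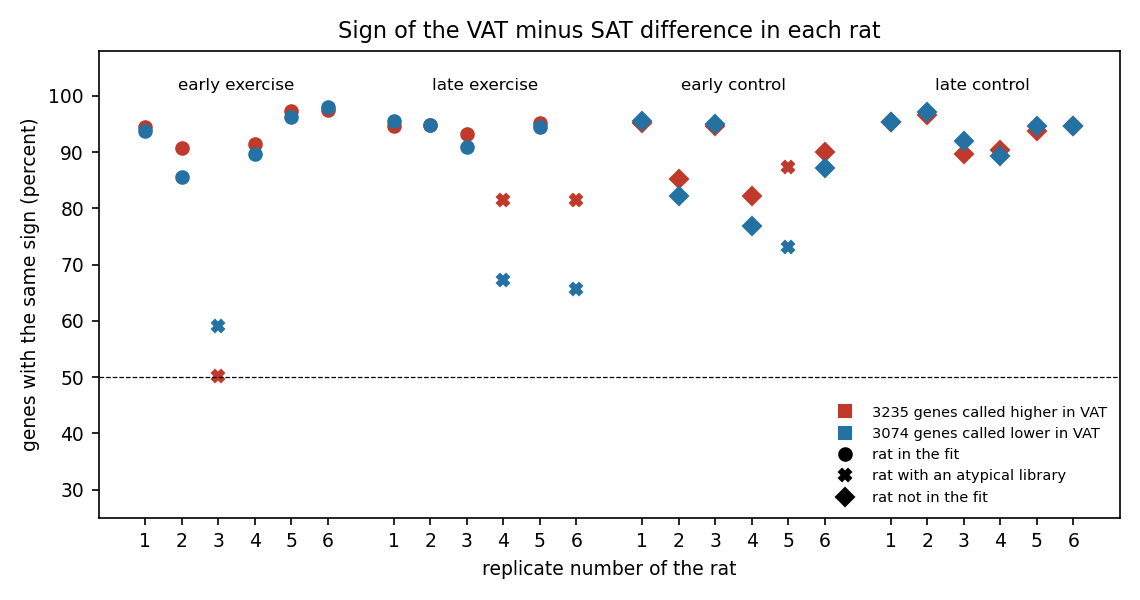
Share of called genes (percent, vertical axis) whose VAT minus SAT difference had the called sign in each rat (replicate number within its group, horizontal axis), for genes called higher (red) and lower (blue) in VAT; circles are the 9 exercised rats of the fit, crosses rats with an atypical library, diamonds the other sedentary rats. The 3 exercised rats with an atypical library lie lowest among exercised rats, and sedentary rats outside the fit lie between 73.1% and 97.1%.

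A depot score, the mean log2 CPM of the 291 genes over 2-fold higher minus that of the 583 genes over 2-fold lower, placed every library on the side of its label. In the fit, VAT libraries scored 2.26 to 3.49 and SAT libraries -1.22 to 0.64, which follows from the choice of genes. Outside the fit, the VAT libraries of early exercise rat 3 and late exercise rats 4 and 6 scored 1.83, 2.72 and 2.53, against 0.51, -1.005 and -0.81 for their SAT libraries. In 11 sedentary rats VAT scored 1.73 to 3.42 and SAT -0.90 to 0.42. The atypical VAT library of early exercise rat 3 thus lay below the VAT libraries of the fit and above all SAT libraries.

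**Figure D4:**
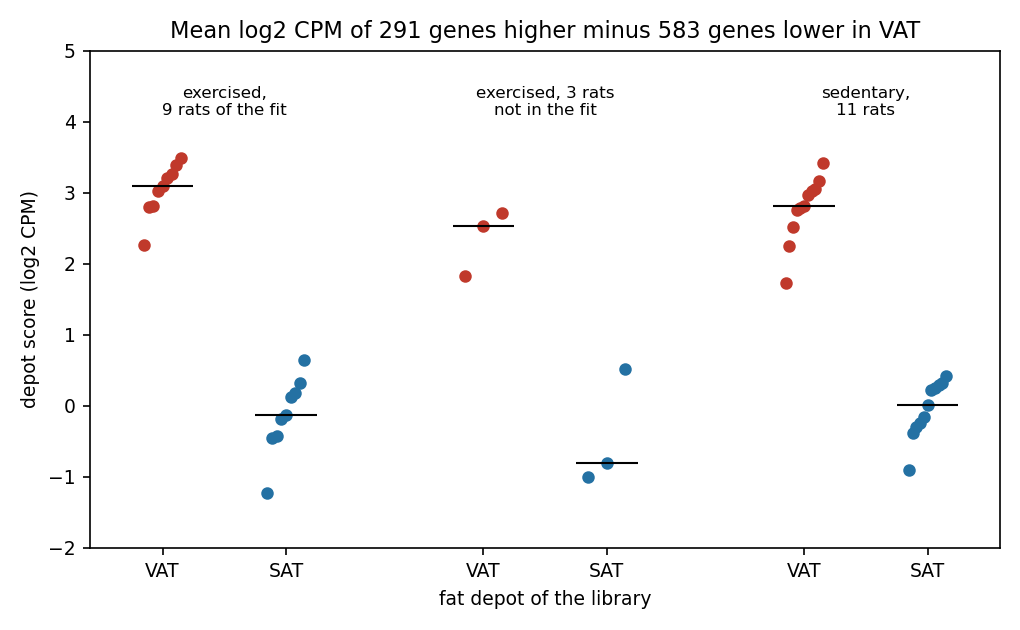
Depot score of each library in log2 CPM (vertical axis) by depot, for the 9 exercised rats of the fit, the 3 exercised rats left out of it and 11 sedentary rats; bars are medians. VAT libraries lie at 1.73 or higher and SAT libraries at 0.64 or lower in all 3 sets.

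With all 12 exercised rats, 2684 genes were higher in VAT and 2219 lower of 13549 tested (19.8% and 16.4%, together 36.2%). Of the 6309 calls from 9 rats, 4593 were called again in the same direction, which is 72.8% of that list and 93.7% of the calls from 12 rats, and none was called in the opposite direction. Over 4-fold, 48 genes were higher and 105 lower, and 34 and 83 of these were over 4-fold in both fits.

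The phases were also read one by one, to ask whether the depot difference depended on when the rats were exercised and sampled. In early exercised rats (5 pairs) 2232 genes were higher in VAT and 1863 lower (16.5% and 13.8%, together 30.3% of those tested). In late exercised rats (4 pairs) 2491 were higher and 2006 lower (18.4% and 14.9%, together 33.3%). Both phases called 1621 genes higher and 1219 lower, together 69.4% of the early calls and 63.2% of the late calls, and 5 genes were called in opposite directions. The early count was 2635 without early exercise rat 5 and 2490 without early exercise rat 6. With all 12 rats, which adds 3 rats with an atypical library at once, the early count was 1616 and the late count 4787. The log2 fold changes of late and early rats, which share no library, correlated at r = 0.801 over the 13508 genes.

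No gene passed the test of the difference itself. For late minus early, edgeR called 0 genes (0% of those tested), while 1305 had an unadjusted p under 0.05. The smallest adjusted p was 0.222 (edgeR). By limma voom 0 genes were called, and by the DESeq2 Wald test 52. Over genes the median standard error of this difference was 0.189 on the log2 scale. On simulated counts the edgeR test found 69.7% of differences of this kind at 4-fold, 56.1% at 2-fold and 4.48% at 1.5-fold.

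Of the genes in which VAT gained on SAT at the late phase, the one with the smallest p stood at 145 ± 19.2 CPM in VAT and 90.2 ± 11 CPM in SAT of late exercised rats (SD, n = 4 each). In early exercised rats it stood at 91.2 ± 17.6 CPM in VAT and 121 ± 31.1 CPM in SAT (SD, n = 5 each). The late minus early difference was 1.07 ± 0.146 on the log2 scale (SE, adjusted p = 0.222, edgeR). The depots did not overlap late, at 125 to 164 CPM in VAT and 80.8 to 103 CPM in SAT, and overlapped early. In sedentary rats this gene averaged 75.1 CPM in VAT and 110 CPM in SAT early. Late sedentary rats had 90.6 CPM in VAT and 76.7 CPM in SAT, so the direction of the shift was the same without exercise. The next such gene stood at 766 ± 141 CPM in VAT and 399 ± 86.2 CPM in SAT at the late phase. At the early phase it stood at 245 ± 46.1 CPM in VAT and 251 ± 31.9 CPM in SAT. Its late minus early difference had an adjusted p of 0.222 (edgeR). In sedentary rats it averaged 522 CPM in VAT and 286 CPM in SAT late, and 298 and 259 CPM early, again the same direction. A late minus early difference in sedentary rats was not tested.

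In the opposite direction, the gene with the smallest p stood at 28.3 ± 3.03 CPM in VAT and 30.7 ± 4.32 CPM in SAT of late exercised rats. In early exercised rats it stood at 42.1 ± 7.1 CPM in VAT and 22.4 ± 5.29 CPM in SAT. The difference was -1.03 ± 0.177 on the log2 scale (SE, adjusted p = 0.244, edgeR). In sedentary rats this gene averaged 26 CPM in VAT and 18.8 CPM in SAT late, and 41.1 and 25.9 CPM early. None of the genes described here passed the threshold in the edgeR fit of the 9 rats; whether they are among the 52 calls of the DESeq2 Wald test was not examined. For the 4 followed IDs the adjusted p of this difference lay between 0.565 and 0.902 (edgeR).

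Finally, the depot difference of exercised rats was set against that of sedentary rats, 9 and 11 pairs in 1 fit of 13684 genes. In this fit 3605 genes were higher in VAT and 3726 lower in exercised rats (26.3% and 27.2%, together 53.6% of those tested). In sedentary rats 3725 were higher and 3724 lower (27.2% each, together 54.4%). Both called 3084 genes higher and 3069 lower, which is 83.9% of the exercised list and 82.6% of the sedentary list, and 1 gene was called in opposite directions. Of the exercised calls 99.2% had the same sign in sedentary rats, which share no library with them. The log2 fold changes correlated at r = 0.915 over genes, which are not independent replicates.

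The sizes were close as well. The 50 genes over 4-fold higher in VAT of exercised rats in this fit had a median log2 change of 2.78 there and of 2.59 in sedentary rats. The 129 genes over 4-fold lower had a median of -2.76 in exercised and -2.32 in sedentary rats. As these genes were chosen for their size in exercised rats, a smaller median in other rats follows in part from the choice. Over 4-fold, 120 genes were shared, 67% of the exercised and 81.6% of the sedentary list.

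No gene passed the test of the difference between exercised and sedentary rats. For exercised minus sedentary, edgeR called 0 genes (0% of those tested), while 446 had an unadjusted p under 0.05. The smallest adjusted p was 0.994 (edgeR), and DESeq2 and limma voom called 0 as well. The median standard error of the difference was 0.123 on the log2 scale. ENSRNOG00000014378 stood in sedentary rats at 0.0619, 0.276 and 0.599 CPM in VAT and at 12.9, 16.5 and 35.2 CPM in SAT (lowest, median and highest of 11). ENSRNOG00000030981 had the largest fitted difference among the 4 IDs, at -1.60 ± 0.831 on the log2 scale (SE, adjusted p = 0.994, edgeR). It stood at 0, 0.134 and 0.673 CPM in VAT and 1.6, 5.89 and 14.1 CPM in SAT of sedentary rats. A p that misses the threshold does not show that exercised and sedentary rats were alike in these genes.

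**Figure D5:**
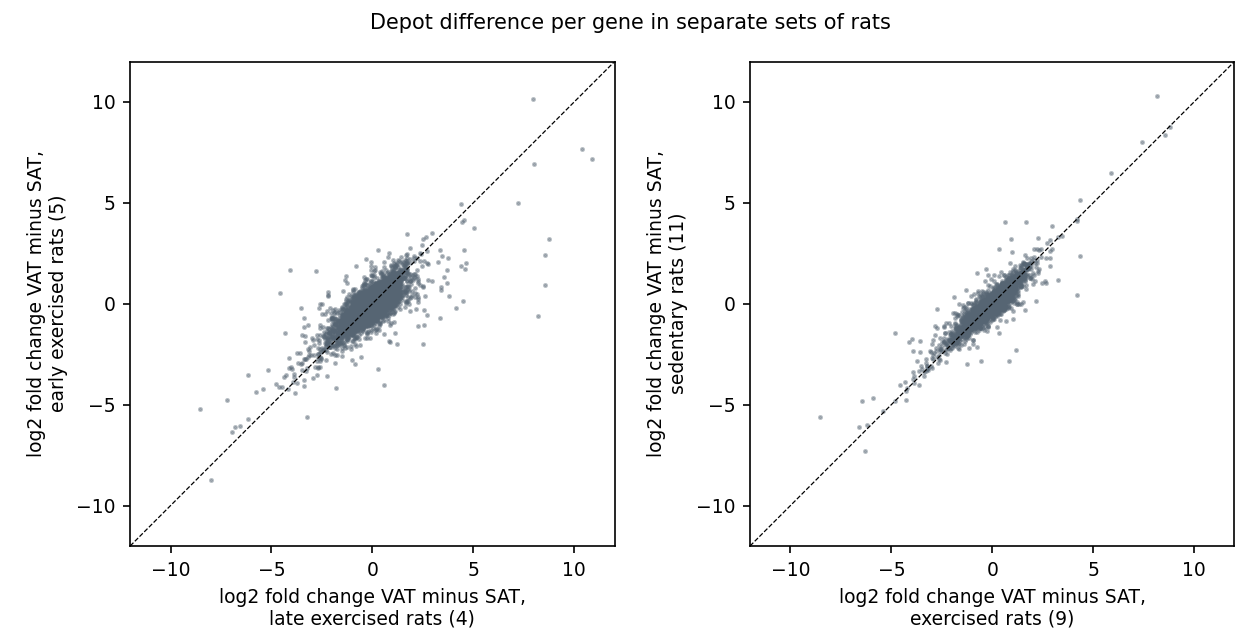
Log2 fold change of VAT minus SAT per gene in late exercised (horizontal) against early exercised rats (vertical; left panel) and in exercised (horizontal) against sedentary rats (vertical; right panel); the dashed line marks equal values. Points follow the line in both panels and are drawn from the genes of the main fit. The correlation was r = 0.801 on the left. For the right panel r was 0.915, taken over all 13684 genes of the exercised and sedentary fit. The panels differ both in number of rats and in phase, and the cause of the lower r was not tested.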

How the data were processed

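PolyA-selected RNA of VAT and SAT was sequenced, and the deposited table holds estimated counts per Ensembl gene ID as whole numbers. Per the submitters' processing notes, Salmon 1.4.0 and rn6 were used. Annotation release, transcript summing and strand setting: not given in the sources used here. The authors' estimated counts were read as deposited (rounding changed none) through the library names in the labels.

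The tests were run in R 4.3.3 with edgeR 4.0.16 (TMM, filterByExpr by depot, quasi-likelihood F test, Benjamini-Hochberg at 0.05), with the rat as a block. The filter kept 13508 genes with 99.8% of the counts, and the common biological coefficient of variation was 19%. Depot effects within phases, and within exercised and sedentary rats, were fitted as separate terms and contrasted; the second of these left out early control rat 5, whose VAT library is atypical. Standard errors are the log2 change over the square root of F. The symbol-based gene lists were not analysed here, since no ID matched. Members, lists and exclusions were chosen with earlier results of these data known. The named genes are the 2 largest rises and 2 largest falls among called genes with at least 5 CPM in a depot and the same sign in all 9 pairs. Per-rat differences, components and scores used log2 CPM with a prior count of 2.

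Replicate letters pair the depots: with genes whose deviations from the group mean correlated over 0.8 between depots in the other rats, 11 of 12 exercised rats, and all 9 of the main comparison, matched their own other depot best; late exercise rat 4 did not. Over all genes the same-rat correlation of deviations lay between -0.0745 and 0.194 in the 9 rats. Libraries are separate rats, and all 60 pairs within exercised groups differed by more than sampling noise (chi-square per degree of freedom from 11.2). On simulated counts (13406 genes, 200 changed) the depot test found 95.2% of changes at 4-fold, 90.8% at 2-fold and 67.2% at 1.5-fold and called 2 unchanged genes; the late minus early values in the results ran on 13417 genes. The alternatives were all 12 rats, no block, DESeq2 1.42.0 size factors, no count filter, the DESeq2 Wald test, limma 3.58.1 voom, equal weight of the phases and leaving out each rat; 1 more was added after seeing the data. At the lowest depth a gene with 0 counts may hold up to 0.228 CPM (3 counts of the total).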

Additional observations from a re-analysis of the deposited data

Results flagged for a closer look

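Of 29 measures tested over the 9 rats, some of which overlap, 1 held a single library distant from its group. Chance alone would do so in about 1 of 20 for normally spread values. ENSRNOG00000013074 stood at 0.127 CPM in the SAT library of late exercise rat 2 and at 0 CPM in the other 8 SAT libraries, a gap that rests on 2 counts. With 8 values at 0, any nonzero value would be flagged whatever its size, so that rate does not apply here.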

How the results depend on the processing

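The counts of genes called higher and lower in VAT kept within 1.5 times of 3235 and 3074 with all 12 rats, no block, the other scaling, no count filter, the DESeq2 Wald test, voom and equal weight of the phases. Leaving out 1 rat gave 2910 to 3133 higher and 2642 to 3083 lower. Without the replicate block, so with unpaired depots, 3130 were higher and 3164 lower, and 5958 of the 6309 calls were shared; late minus early then had 0 calls, and no call of the followed IDs changed. Without the 4 rats whose SAT library held over 1000 CPM of the abundant gene described at the end, an alternative chosen after seeing the data, 1954 were higher and 1722 lower with 5 rats. Of these 3676 calls, 3593 were among the 6309; the setting has fewer rats. The early count was 1616 with all 12 rats, against 4095 with 9, while the late count was 4787 against 4497. The cause was not tested. When a rat was left out, the early count lay between 2490 and 4174 and the late count between 3231 and 4907. Late minus early had 0 or 1 calls when a rat was left out (1 without early or late exercise rat 2) and 52 with the DESeq2 Wald test, the cause not tested. Over 4-fold counts without a filter on low counts were 112 and 342 rather than 42 and 111. The followed IDs kept direction and call under these settings, while the fitted size of all but ENSRNOG00000014378 moved by over 1.5 times under some of them, as given beside each gene. Depth limits the 2 rises most, since their SAT level rests on 2 counts each.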

Other observations

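The most abundant gene with a fitted difference over 4-fold that was not called, chosen here after its values were seen, was almost constant in VAT and differed by orders of magnitude between SAT libraries. In VAT of the 9 rats it stood between 6.58 and 9.97 CPM. In SAT it stood at 23279, 18194, 10260 and 5109 CPM in early exercise rat 2, late exercise rat 1, early exercise rat 6 and late exercise rat 2, and between 8.09 and 56.5 CPM in the other 5 rats. Among the 9 rats it took at most 2.47% of the counts of a SAT library, in early exercise rat 2. The log2 fold change was -4.71 ± 1.88 (SE, adjusted p = 0.0571, edgeR), and VAT was lower than SAT in 8 of 9 pairs.

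The same gene was very high in the atypical SAT libraries. Among the 3 exercised rats outside the fit it reached 110479 CPM in SAT of late exercise rat 4 and 58886 CPM in SAT of late exercise rat 6, and stood at 6.74 CPM in SAT of early exercise rat 3. Their VAT libraries held up to 436 CPM, in late exercise rat 4. Among 12 sedentary rats no VAT library exceeded 1000 CPM, with values from 4.32 to 125 CPM, while 3 SAT libraries did, with a median of 18.8 CPM and a highest value of 35654 CPM. The libraries kept in the main comparison thus differed in this RNA as well, and its source was not tested. The second-largest fall, ENSRNOG00000030981, was also highest in SAT of late exercise rats 4 and 6; without the 4 rats of the fit that held over 1000 CPM of the abundant gene, its log2 fold change was -5.36 ± 0.65 (SE, adjusted p = 0.00151, edgeR).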
